A study of Sus scrofa with 44 samples.

Results

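In fetal pig longissimus dorsi, a muscle of the back, 238 genes had a peak of N6-methyladenosine (m6A) in the lists of both late stages, 70 and 95 days post coitus (E70 and E95), and none in the lists of 33, 40 and 50 days (E33, E40 and E50). They are called late-peak genes here, and were chosen by presence in these 5 lists, that is by the authors' peak calls, and by no other measured value. They made up 238 of the 3909 genes with a peak at both late stages and 238 of the 6341 genes with a peak at any of the 6 fetal stages. Their 569 peaks, called late peaks, were 273 of 8499 peaks at E70 and 296 of 8109 at E95. The genes were split by their mean input level at E33: 219 had at least 1 TPM, the share of a library's transcripts after correction for length, 17 had less, and 2 without a symbol had no TPM value in the files (ENSSSCG00000037997 and ENSSSCG00000036020). A symbol was found for 203 of the 238.

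The study followed m6A through prenatal muscle formation by MeRIP-seq, in which RNA bound by an antibody against m6A is sequenced beside the input RNA. Muscle gave 36 samples of rRNA-depleted RNA, 3 input and 3 immunoprecipitated at each of 6 stages (E33, E40, E50, E60, E70 and E95), and PK15, a pig kidney cell line labelled as adult, gave 8 samples from polyA or rRNA-depleted RNA. No genotype, breed or treatment distinguishes the groups, and the labels do not say whether the samples of a stage came from separate fetuses, litters or pools. P-values therefore measure only the spread between these samples, which may be technical. The peak lists, 1 per stage and 1 per PK15 preparation, have no replicates, so presence and fold enrichment of a peak carry no error.

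m6A is placed on messenger RNA by a methyltransferase complex built around METTL3 and METTL14, mostly at adenosines within a short motif called DRACH. The mark is known to lie often near stop codons and in long exons, and proteins that bind it alter the splicing, translation or stability of the RNA. Muscle fibres form in the fetus in a primary and a secondary wave, after which the contractile and metabolic genes of mature fibres come to dominate the RNA.

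The sequences below show the motif under late peaks chosen by fold enrichment within each level class. They come from the 4 genes with a symbol and the highest fold in each class, among those whose peaks overlapped at both stages. The fold used is the lower of the gene's highest folds at E70 and E95. In the class under 1 TPM it was as low as 4.91, for KCNQ5. Each window has 25 bases on the transcript strand, read from the RefSeq genome of Sscrofa11.1, the build of the peak lists. Capitals mark the DRACH match, in which D is any base but C, R is a purine and H is any base but G. GGACT was preferred, then another GGAC match, then the match nearest the middle of the overlap.
KITLG: gcatggcggaGGACTctattttaag
OSBPL11: gaagcactatGGACAtctcaccagg
CSNK1E: cacgcactggGGACCtaccacactc
IRAG1: gtggagctcaGGACTccagcatgag
FAM124B: ggtcagttctGAACCcaagcaatct
ATG4A: atagcaatcaTGACTgagccaatca
LSMEM1: tcaaccaactGGACTtggaacggaa
KCNQ5: tggtacccaaGGACCtgggcaagtc

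The first 4 genes had at least 1 TPM at E33 and the last 4 had less. The KITLG window (ligand of the receptor KIT) lies in the 3' UTR at chr5:94106053-94106077 on the plus strand, in an overlap that holds 2 GGACT and 9 DRACH matches. That of OSBPL11, an oxysterol-binding protein relative, lies near the stop codon at chr13:134805677-134805701 (plus). That of CSNK1E, a casein kinase 1 that phosphorylates clock proteins, lies in an exon outside the coding transcript used, at chr5:9615355-9615379 (plus). That of IRAG1, a substrate of cGMP-dependent kinase bound to the IP3 receptor, lies near the stop codon at chr2:48927466-48927490 (plus). In the class under 1 TPM, the FAM124B window is coding (chr15:126113892-126113916, minus), as is that of the potassium channel gene KCNQ5 (chr1:52935944-52935968, plus). The windows of ATG4A, a protease of autophagy (chrX:88632963-88632987, plus), and LSMEM1, a single-pass membrane protein gene (chr18:33185827-33185851, minus), lie near the stop codon. A GGAC core stood in 6 of these 8 windows, and the FAM124B and ATG4A overlaps held only other DRACH matches. A match is a description of the letters and not evidence of a methylated base.

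Over whole peaks the motif was denser than in the rest of the same transcripts. At E70, late peaks held 25.8 DRACH matches per kb of exonic sequence and the rest of the 213 transcripts 19.2, a ratio of 1.35. At E95 the ratio was 1.32 over 216 transcripts. Peaks of other genes gave 1.28 at E70 and 1.29 at E95. For the stricter GGACH, with H again any base but G, the ratios of late peaks were 1.93 and 1.96, and those of other peaks 1.78 and 1.76. Matches were counted on the transcript strand and may overlap, and these ratios have no error estimate.

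The fold enrichments chose nothing beyond presence in the lists, but presence depends on them, so they are given as a description. The highest fold per gene had a median of 4.34 at E70 (range 1.63 to 30.1) and 4.70 at E95 (1.69 to 29.4), beside 5.14 and 5.29 for the 3671 other genes with a peak at both stages. The highest fold is taken over more peaks in the other genes. Per peak, the median fold was 3.92 at E70 and 4.26 at E95, beside 4.2 and 4.41. The authors' p-value per peak had a median of 2.6e-08 at E70 and 7.85e-09 at E95, beside 4e-18 and 3.2e-16. A late peak covered a median of 121 exonic bases at E70 and 149.5 at E95, beside 211 and 210. A single peak was listed for 205 of the 238 genes at E70 (86.1%) and 193 at E95 (81.1%), beside 51.2% and 53.4% of the other genes. By these medians and shares late peaks were shorter, fewer per gene and had larger p-values than the peaks of the other genes with a peak at both stages.

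**Figure D1:**
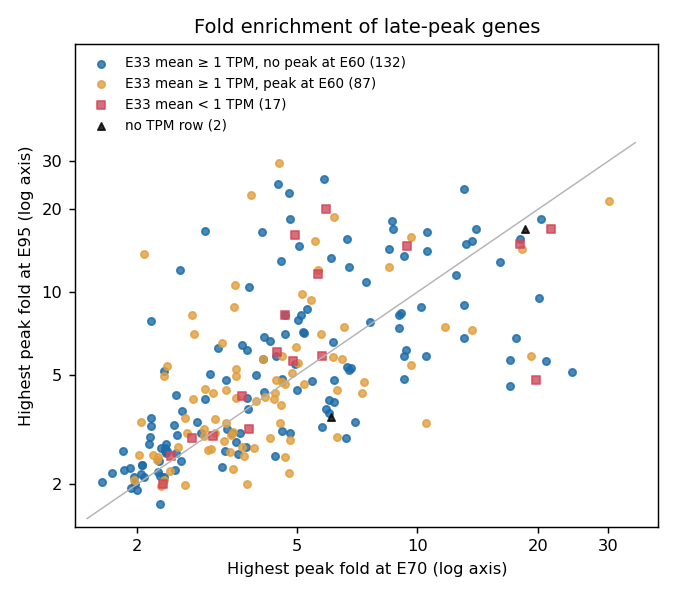
Highest fold enrichment of each late-peak gene at E70 (x axis) and E95 (y axis), both on log axes, with the diagonal in grey. Each point is 1 gene, and colours mark the E33 level class and a peak at E60. KITLG is the point farthest right, at 30.1 and 21.4.

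In many genes the fold differed between the stages, as the plot of fold at both stages shows. It was higher at E95 in 136 genes and at E70 in 101. NR1D2, which encodes a nuclear receptor that represses clock genes, had 24.3 at E70 and 5.12 at E95. IRS2, an adaptor of the insulin and IGF receptors, had 17.6 and 6.82. NRAP, a scaffold of myofibril assembly, had 2.08 and 13.8, but the latter belonged to an E95 peak with no counterpart at E70 (chr14:124017678-124017798, minus). Its coding peaks found at both stages had 1.90 and 2.08 at E70 and 2.30 and 1.98 at E95. In 15 genes both folds were at least 10, and in 88 the lower fold was under 3.

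Peaks of E70 and E95 overlapped by at least 1 exonic base in 199 of the 238 genes (83.6%, Wilson 95% interval 78.4 to 87.8), and in 97.0% of the other genes. The other genes more often had several peaks, and longer ones, as given above, so these shares are not like for like. This overlap was not asked for by the rule. EYA1, a transcriptional coactivator of early muscle and organ formation, was among those without it: its 3' UTR peaks lay at chr4:64326263-64326563 at E70 and chr4:64326653-64326713 at E95, on the plus strand. MYOZ1, by contrast, had the same peak at both stages, in 2 exon blocks of the 5' UTR between chr14:76451441-76452808 (minus), with folds of 4.54 and 3.33. Intervals here and below cover counting error only, and peaks of 1 gene are not independent.

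Near the stop codon, within 200 transcript bases, lay 165 of the 563 late peaks on assembled chromosomes (29.3%, Wilson 95% interval 25.7 to 33.2), beside 19.7% (19.1 to 20.3) of the 15816 other peaks. The coding sequence farther from the stop codon held 41.6% (37.6 to 45.7) of late peaks and 59.9% of the others. The shares for the rest of the 3' UTR were 13.5% (10.9 to 16.6) and 9.63%, and for the 5' UTR 5.68% (4.05 to 7.91) and 3.05%. The share near the stop codon was 31.0% at E70 and 27.7% at E95. It was 30.1% (26.3 to 34.1) in the class of at least 1 TPM and 23.1% (12.6 to 38.3) in the small class under 1 TPM. With windows of 100 and 400 bases the share of late peaks was 17.1% and 41.4%.

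**Figure D2:**
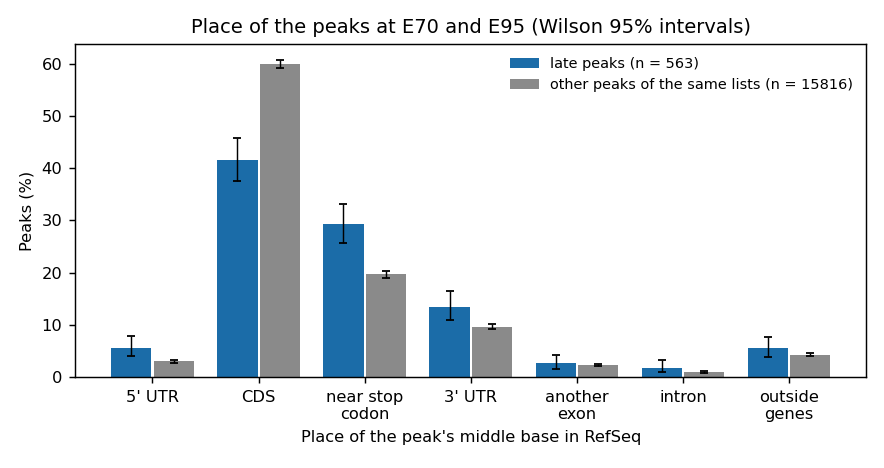
Share of peaks (%) by the place of the middle base in RefSeq, for 563 late peaks (blue) and 15816 other peaks of the E70 and E95 lists (grey), with Wilson 95% intervals. Late peaks show 29.3% near the stop codon and 41.6% in the coding sequence, and other peaks 19.7% and 59.9%.

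Some positions were given to more than 1 gene. In 23 of the 238 genes a late peak overlapped a peak listed under another gene on either strand. For ITGA11 and ASB14 the other peak came from an early list, that of FEM1B and APPL1 respectively, on the opposite strand. GATA2 and EEFSEC, both late-peak genes, had E70 peaks of opposite strand that overlapped, at chr13:71996205-71996295 and chr13:71996197-72025785. The strand handling of the reads is not given in the sources used here, so such pairs cannot be told apart.

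The E60 list was not used by the rule, but the groups compared here were set apart by it at the earlier stages. All the other genes had a peak in at least 1 early list, and 2555 of them in all 3. The difference at E60 is therefore given as a description. A peak at E60 was present in 88 late-peak genes (37.0%, Wilson 95% interval 31.1 to 43.3), beside 3349 of the 3671 other genes (91.2%, 90.3 to 92.1). In 83 of the 88 it overlapped the gene's E70 or E95 peak. Of the class under 1 TPM at E33, 1 of 17 had it. KITLG, MYOZ1, NRAP, PTP4A3, ZNF660 and MYOD1 had a peak at E60, and IRS2, NR1D2, PYGM and SYPL2 had none. Counting only E60 peaks at or above that list's median fold, the share was 18.5%.

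PK15 cells had a peak in 176 of these genes with polyA RNA (73.9%, Wilson 95% interval 68.0 to 79.1) and in 124 with rRNA-depleted RNA (52.1%, 45.8 to 58.4). The other genes gave 83.6% and 78.5%. In 170 late-peak genes a PK15 peak overlapped the late peak itself. IRS2 and NR1D2 had peaks in both PK15 lists. None was listed there for MYOZ1, PYGM, SYPL2, MYOD1, CA3 or LSMEM1, and expression of PK15 was not analysed here.

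Absence from the early lists did not mean absence of the RNA. At E33, E40 and E50 alike, 209 late-peak genes had a stage mean of at least 1 TPM, 120 at least 5 TPM and 60 at least 10 TPM. MYOD1, which encodes a transcription factor that commits cells to muscle, had 198 TPM at E33. TMSB4X, which encodes an actin-sequestering peptide and was picked after its values were seen, had 674 TPM at E33, with late folds of 1.92 and 2.30. The genes nearest the boundary at E33 were KCNG2 (1.02 TPM) and TMEM150C (1.06) above it, and ASB10 (0.972) and ENSSSCG00000029203 (0.919) below it. Near the rule's other boundary, 436 genes had peaks at both late stages and in a single early list: 266 at E33 alone, 155 at E50 alone and 15 at E40 alone. The E40 list was the smallest, with 4928 peaks, and the other muscle lists held 7058 to 8685.

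Input libraries differed in composition. Every library summed to 1000000 TPM, so depth is unknown, and 1 gene without a symbol took 37.4% to 72.4% of the TPM. E40 replicate 2 and E50 replicate 3 had the fewest genes at 1 TPM or more, 10545 and 8691, beside 10876 to 13912 in the other 16. Only E50 replicate 3 stood clearly apart. E95 replicate 2 (10876) and E95 replicate 1 (11361) came next after E40 replicate 2. Values below were therefore scaled between libraries by the median ratio over genes (scaled TPM), and results on TPM as deposited are given beside them. Muscle markers were present in every library: ACTA1, CKM, DES, MYH3, MYH8 and TNNT3 summed to at least 2998 scaled TPM.

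The median late-peak gene of the class above 1 TPM lay at 4.70 to 4.97 scaled TPM in the 3 E33 libraries and at 10.1 to 10.9 in the 3 E95 libraries. At E70 it lay at 8.45 to 9.24, so E33, E70 and E95 did not overlap. The genes were chosen on the peak lists of these stages and split by their E33 level. This order of the medians is therefore a description of the genes, and nothing is read from it. The stage medians of all late-peak genes with values were 4.46, 5.82, 6.57, 7.08, 8.40 and 9.80 scaled TPM from E33 to E95. Other genes with late peaks held from 9.95 at E33 to 10.6 at E95. On TPM as deposited the order was different: 7.68 at E33, 6.62, 5.61, 9.05, 8.50 and 6.86 at E95.

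**Figure D3:**
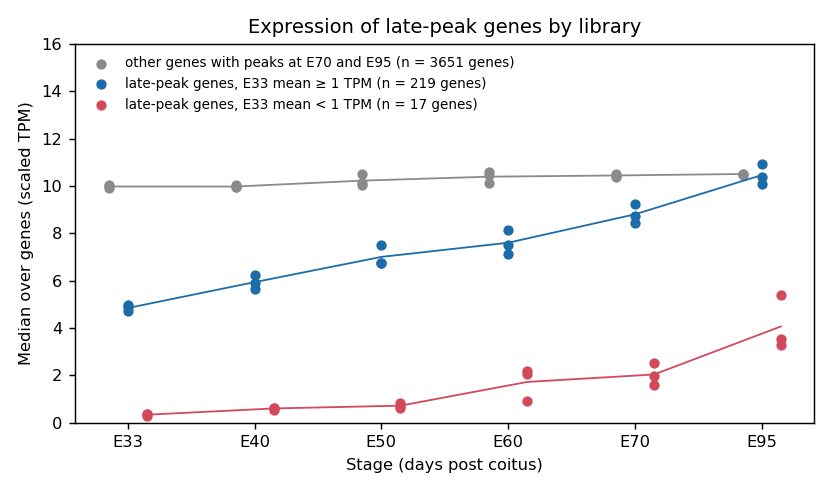
Median over genes of scaled TPM (y axis, linear) in each of the 18 input libraries by stage, for late-peak genes of both E33 level classes and for the other genes with a peak at E70 and E95. Points are libraries and lines join stage means. The class above 1 TPM moves from 4.70 to 4.97 at E33 to 10.1 to 10.9 at E95, stages whose peak lists chose the genes.

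Expression at E70 and E95 was set against E40 and E50 with limma on log2(scaled TPM + 1), with Benjamini-Hochberg adjustment over 13334 genes. Of the 238 genes, 228 passed the filter of a mean of 1 TPM over the 18 libraries: 218 of the class above 1 TPM at E33 and 10 of the class below. At an adjusted p under 0.05, 122 were higher at the late stages, 7 were lower and 99 were not called. Over all genes tested, 19.0% were higher and 16.9% lower. The median log2 change was 0.36, beside 0.0057 for all genes tested. By class, 114 of 218 were higher and 7 lower, and 8 of 10 were higher. The peak lists that chose these genes were called on the same stages, so these counts and the tests of single genes in this comparison are a description of the genes and nothing is read from them. On TPM as deposited, 37 were higher and 1 lower, with 2.73% and 1.36% of all genes, and the 38 called were all called the same way after scaling. Without E40 replicate 2 and E50 replicate 3, 119 were higher and 12 lower, beside 2568 and 2187 of all 13334 genes.

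**Figure D4:**
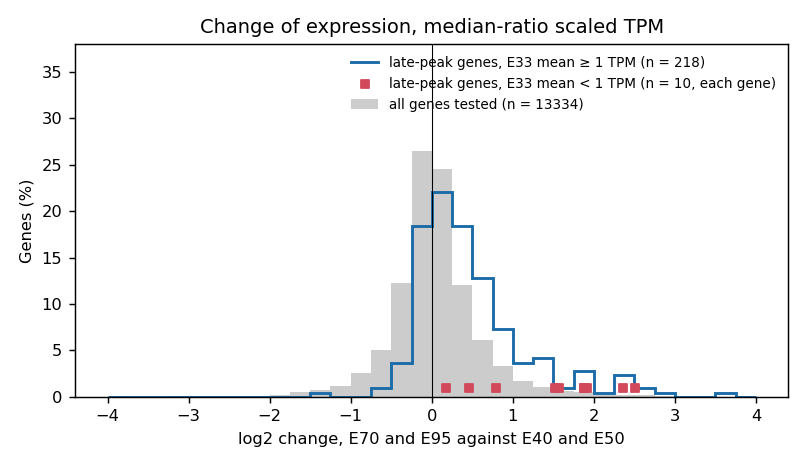
Distribution of the log2 change of scaled TPM (x axis; the 6 libraries of E70 and E95 against the 6 of E40 and E50) as a share of genes (y axis, %) in bins of 0.25. Grey bars are all 13334 genes tested, the blue outline is the 218 late-peak genes above 1 TPM at E33, and red squares are the 10 below it, drawn at an arbitrary height. The median of all 228 late-peak genes tested is 0.36 and that of all genes 0.0057.

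Cells of each type and RNA per cell cannot be told apart in bulk muscle. Of 7 endothelial markers, 7 were called higher at the late stages, and their summed level was 41.7 to 58.7 scaled TPM at E40 and E50 and 77.2 to 114 at E70 and E95. Of 5 fat markers tested 3 were higher, of 5 immune markers 2, and of 6 muscle markers 5, with 1 lower. Of 8 fibroblast and tendon markers 2 were higher and 3 lower, and of 5 nerve and Schwann cell markers 1 and 2. Of 4 erythroid and 5 cartilage markers tested, 0 were called. Over all genes tested, 19.0% were higher and 16.9% lower. Muscle markers summed to 5115 to 10934 scaled TPM at E40 and E50 and 13583 to 19394 at E70 and E95. Their part in the changes of late-peak genes was not tested.

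MYOZ1 (ENSSSCG00000010304) encodes a Z-disc protein of fast fibres that binds calcineurin. Its scaled TPM was 1.27, 1.56 and 2.68 at E33, ran from 14.1 to 55.9 (median 28.4) over E40 and E50, and from 133 to 445 (median 221) over E70 and E95. No late library overlapped an earlier one, and the log2 change was 2.96 ± 0.17 (limma, SE, with an adjusted p of 1.4e-08, n = 6 and 6).
NRAP (ENSSSCG00000010640) ran from 3.62 to 8.20 (median 5.05) over E40 and E50 and from 28.8 to 55.5 (median 33.5) over the late stages, again without overlap. Its log2 change was 2.59 ± 0.10 (limma, SE, with an adjusted p of 2.7e-10). It had 2 peaks at E70 and 7 at E95.
SYPL2 (ENSSSCG00000006829), a membrane protein of the triad junction, went from 11.3 to 27.2 (median 18.7) to 49.6 to 81.7 (median 64.8), a log2 change of 1.77 ± 0.10 (limma, SE, with an adjusted p of 8.4e-09). Its peaks lay in the 3' UTR at both stages, and a further E95 peak lay near the stop codon.

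The 5 gene lists used here and below were chosen with earlier results of these data known, so counts over them are a description. Of 46 measured sarcomere and Z-disc genes, 34 were higher at the late stages and 3 lower (19 and 0 on TPM as deposited). The shares of all genes were 19.0% and 16.9% (2.73% and 1.36% as deposited). MYOZ1 was the single late-peak gene on that list. Another 31 of its genes had late peaks together with an early one. Of 21 genes for excitation-contraction coupling and ion channels, 17 were higher and 0 lower (10 and 0 as deposited), and KCNQ5 and SYPL2 were late-peak genes. In all, 8 late-peak genes stood on the 5 lists, which held 47, 24, 38, 39 and 34 genes with values. Late-peak genes were 238 of the 6341 genes with a peak at any fetal stage. Of the listed genes, 9, 5, 26, 8 and 6 had no such peak, so nothing is read from the 8.

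Metabolic and hormone response genes included PYGM, IRS2 and NR1D2. PYGM (ENSSSCG00000013022), the muscle glycogen phosphorylase, ran from 23.4 to 50.5 scaled TPM (median 30.9) over E40 and E50 and from 85.6 to 175 (median 117) over E70 and E95. The groups did not overlap, and the log2 change was 1.81 ± 0.09 (limma, SE, with an adjusted p of 3.5e-09). Its peak lay at the end of the gene, at chr2:7421104-7421254 at E70 and chr2:7421074-7421313 at E95 (plus).
IRS2 (ENSSSCG00000034763) was not lowest at E33, where its libraries had 17.2, 13.9 and 15.8. It ran from 4.72 to 9.92 (median 5.86) over E40 and E50 and from 11.0 to 35.9 (median 22.5) over the late stages, a log2 change of 1.57 ± 0.16 (limma, SE, with an adjusted p of 4.1e-06). The coding peak at chr11:76652875-76652995 (minus) had the same borders at E70 and E95.
NR1D2 (ENSSSCG00000027017) had 0.757, 0.965 and 0.450 at E33. It ran from 0.926 to 1.81 (median 1.18) over E40 and E50 and from 3.94 to 14.2 (median 9.01) over the late stages, a log2 change of 1.98 ± 0.09 (limma, SE, with an adjusted p of 1.8e-09). Both its late lists held a coding peak and a peak near the stop codon, the latter at chr13:10787879-10787999 at E70 (plus).
Over all genes tested, 19.0% were higher and 16.9% lower (2.73% and 1.36% as deposited). Of 35 carbohydrate and energy metabolism genes tested, 31 were higher and 0 lower (13 and 0 as deposited), and PYGM was the 1 late-peak gene. Of 36 growth, ubiquitin ligase and hormone response genes, 21 were higher and 3 lower (9 and 1 as deposited), with IRS2 and NR1D2 as late-peak genes.

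Among muscle transcription factors, 16 of 32 tested were higher and 6 lower (0 and 0 on TPM as deposited), beside 19.0% and 16.9% of all genes, and MYOD1 and EYA1 were late-peak genes. MYOD1 (ENSSSCG00000013375) had 149, 110 and 101 scaled TPM at E33, 73.6 to 115 (median 90.7) over E40 and E50 and 123 to 252 (median 152) over the late stages. Late libraries lay above all those of E40 and E50 but overlapped E33, and the log2 change was 0.83 ± 0.13 (limma, SE, with an adjusted p of 0.00017, and 0.32 on TPM as deposited). Its E70 peak, at chr2:41424185-41424363 (minus), lay outside RefSeq genes, and at E95 a coding peak at chr2:41423620-41423769 was listed too.
EYA1 (ENSSSCG00000040728) had 2.33 to 2.98 over E40 and E50 and 1.5 to 2.65 over the late stages, which overlapped, and was not called (log2 change -0.18 ± 0.08 SE, adjusted p of limma 0.10).

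The largest rise was that of SNAI3 (ENSSSCG00000040145), a zinc finger factor of the Snail family. It ran from 0.226 to 2.70 scaled TPM (median 0.664) over E40 and E50 and from 8.94 to 47.0 (median 25.3) over the late stages. The groups did not overlap, and the log2 change was 3.63 ± 0.23 (limma, SE, with an adjusted p of 3.7e-08). It had 2 peaks at E70 and 5 at E95. PTP4A3 (ENSSSCG00000036569), a protein tyrosine phosphatase, rose by 2.50 ± 0.12 (limma, SE, with an adjusted p of 1.7e-09), with 2 peaks in its 5' UTR at both stages.

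Falls were fewer. ZNF660 (ENSSSCG00000011310), a zinc finger gene, ran from 20.7 to 37.1 scaled TPM (median 24.0) over E40 and E50 and from 3.95 to 19.3 (median 8.85) over the late stages. No late library reached the earlier ones, and the log2 change was -1.35 ± 0.29 (limma, SE, with an adjusted p of 0.0021). Its coding peak nevertheless was listed at both late stages, with folds of 9.64 and 15.9. ATAD5 (ENSSSCG00000035954), which unloads PCNA after replication, went from 2.48 to 3.52 to 1.20 to 1.97, a log2 change of -0.67 ± 0.08 (limma, SE, with an adjusted p of 2.4e-05, and 0.24 on TPM as deposited). The other 5 called lower, named after their values were seen, were LRP4, ADAM22, RIT1, HAUS6 and ENSSSCG00000015988, with log2 changes of -0.42 to -0.22.

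The genes above 1 TPM at E33 were also ranked by the lower of their folds at E70 and E95, and those at the top of that order are given next. KITLG (ENSSSCG00000035495) ran from 2.10 to 4.47 scaled TPM (median 3.42) over E40 and E50 and from 4.01 to 7.19 (median 6.23) over the late stages. The groups overlapped, and the log2 change was 0.65 ± 0.14 (limma, SE, with an adjusted p of 0.0018, and 0.57 on TPM as deposited). CSNK1E was called higher at 0.33 ± 0.08 (limma, SE, with an adjusted p of 0.0042, and 0.87 on TPM as deposited). OSBPL11 (0.09), IRAG1 (-0.04) and RNF6 (0.36) were not called. Of the 65 tested genes whose lower fold was at least 5, 27 were higher and 3 lower, and of the 163 others 95 and 4. Over all genes tested, 19.0% were higher and 16.9% lower. A relation between fold and change was not tested, and nothing is read from these counts.

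In the class under 1 TPM at E33, the rule itself fixed the low start. LSMEM1 (ENSSSCG00000040053) had 0.544, 0 and 0.597 scaled TPM at E33, ran from 0.572 to 2.36 over E40 and E50 and from 6.79 to 15.9 over the late stages. The late libraries lay above all others of these stages, with a log2 change of 2.51 ± 0.19 (limma, SE, with an adjusted p of 1.5e-07). CA3 (ENSSSCG00000006141), the carbonic anhydrase of muscle, had 0.439, 0.513 and 0.361 at E33, 5.19 to 47.7 over E40 and E50 and 60.6 to 93.7 at the late stages.
It already had 42.3, 43.9 and 47.7 at E50, a stage at which it had no listed peak. The log2 change at the late stages was 1.91 ± 0.17 (limma, SE, with an adjusted p of 1e-06). Its peak, at chr4:51237789-51237879 (minus) in the 5' UTR, had folds of only 2.32 and 2.01. ASB10, an ankyrin repeat and SOCS box gene, rose by 1.88 ± 0.21 (limma, SE, with an adjusted p of 8.5e-06). IP6K3, an inositol hexakisphosphate kinase, rose by 1.57 ± 0.09 (limma, SE, with an adjusted p of 1.3e-08). FAM124B was called higher at 0.79 ± 0.17 (limma, SE, with an adjusted p of 0.0023, and 0.33 on TPM as deposited), and IGSF10 was not called (0.46 ± 0.21).
ZNF770, ATG4A and KCNQ5 did not pass the filter. ZNF770 was listed at 0 in 15 of 18 libraries, with values in 1 E70 library (0.887) and 2 E95 libraries (3.79 and 6.22). KCNQ5 had 0.933, 0.896 and 1.02 at E70 and 2.37, 2.79 and 3.86 at E95, and 0.405 or less in every earlier library.

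**Figure D5:**
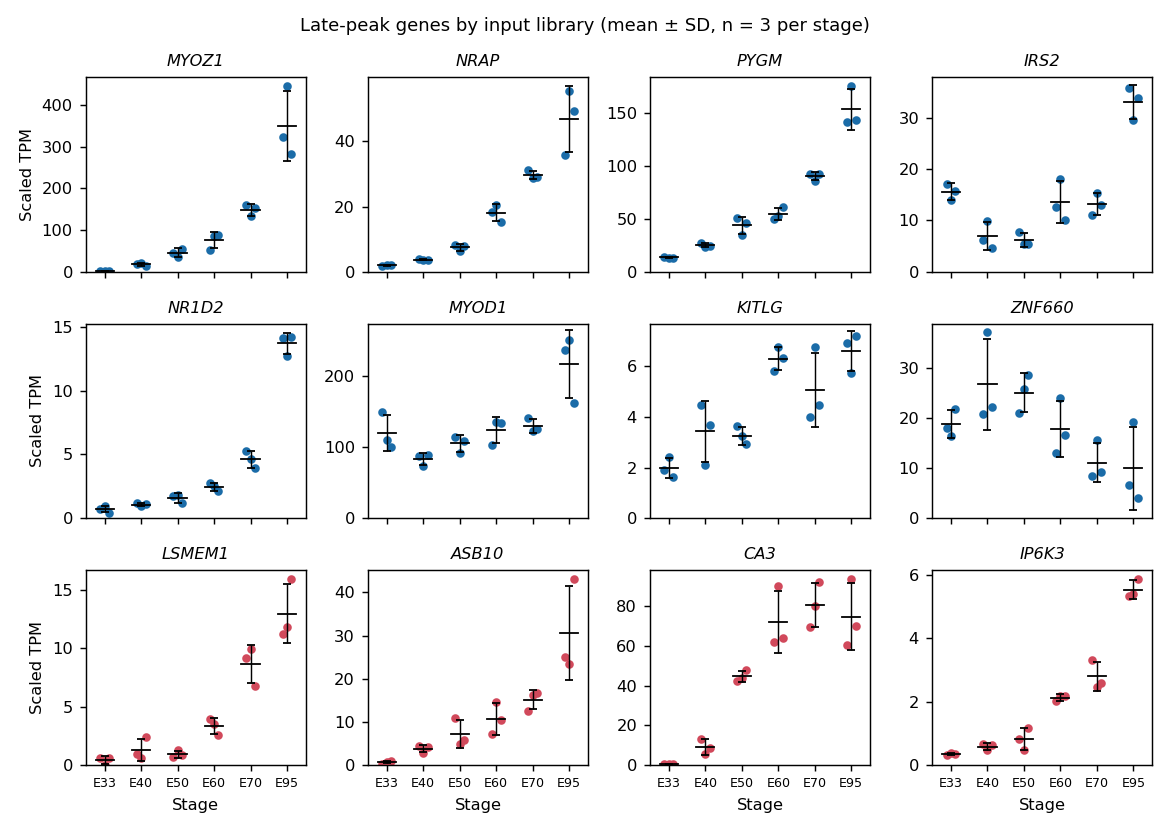
Scaled TPM (y axis, linear from 0, a scale of its own in each panel) by stage in the 18 input libraries for 12 late-peak genes, blue with at least 1 TPM at E33 and red with less. Points are libraries, and bars are the mean ± SD (n = 3). MYOZ1 goes from 1.27 to 2.68 at E33 to 283 to 445 at E95, and ZNF660 has its lowest library, 3.95, at E95.

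A late peak did not always go with a stage mean of at least 1 TPM as deposited, though a lower mean can still be a measured level. In 14 late-peak genes a late stage mean was under 1 TPM, 6 in the class above 1 TPM at E33 and 8 in the class below. ENSSSCG00000038357 was the lowest of the former at E70, at 7.6e-05 TPM, with 2.67 TPM at E95, but its peaks overlap those listed for SPCS2, another late-peak gene, and the source of their reads cannot be told apart.

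The rule asked for a peak at both E70 and E95, so it set no direction between these stages. Both lists took part in the choice, however, so E95 against E70 is also given as a description of the genes. Of the 228 genes tested, 49 were higher at E95 and 3 lower, with 6.84% and 6.73% of all genes tested. The median log2 change was 0.23, beside 0.0016 for all genes. NR1D2 had 5.30, 4.62 and 3.94 scaled TPM at E70 and 14.1, 12.7 and 14.2 at E95, with no overlap (log2 change 1.39 ± 0.13 SE, adjusted p of limma 1.5e-05). IRS2 had 11.0, 15.4 and 13.1 and then 35.9, 29.5 and 33.9 (1.28 ± 0.23 SE, adjusted p of limma 0.002). Both genes were thus separated between the late stages as well.
PTP4A3 (1.41), SNAI3 (1.69), MYOZ1 (1.20), IP6K3 (0.79), PYGM (0.76), MYOD1 (0.71) and NRAP (0.62) were called higher too, as log2 changes. The 3 lower genes, named after their values were seen, were COL5A3 (-0.78), a fibrillar collagen gene, DDAH1 (-0.65), which degrades methylated arginines, and NEURL1 (-0.42), a ubiquitin ligase gene. KITLG, SYPL2, CA3 and LSMEM1 were not called.
These calls depend on the scaling. On TPM as deposited limma called 0 of the 228, with 7 at an unadjusted p under 0.05, and 0.0750% of all genes were called higher and 0.210% lower. The deposited median over all genes tested lay 0.41 lower at E95 than at E70 (log2), and that of the late-peak genes 0.24 lower. Without E70 replicate 2, 28 were higher and 3 lower, beside 594 and 650 of all 13334 genes.

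E95 against E33 spans the whole series, and as the E33 level made the classes and the E33 list the choice, it is given as a description. Of 228 genes, 140 were higher at E95 and 8 lower, with 23.7% and 23.0% of all genes tested. On TPM as deposited, 27 were higher and 37 lower, with 2.64% and 45.8% of all genes, while the median of all genes lay 1.02 lower at E95 (log2).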

How the data were processed

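Input RNA was summarised by the authors as TPM, named so in the headers of the deposited files (18 muscle libraries, 22427 genes each). The deposited peak lists give a fold enrichment, a ratio, and a p-value per peak, per the file headers. Trimmomatic, HISAT2 and Sscrofa11.1 are listed in the submitters' processing notes. The quantification program, the peak caller and any pooling are not given in the sources used here. Without counts, no counting interval can be given for expression.

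TPM were scaled by median ratios, and log2(scaled TPM + 1) was fitted with limma 3.58.1 in R 4.3.3 with 1 mean per stage over 18 libraries (12 residual degrees of freedom), empirical Bayes moderation with a trend, two-sided tests and Benjamini-Hochberg adjustment over 13334 genes, those averaging at least 1 TPM. Fold changes on this scale understate those of low genes. In data simulated on these genes for E70 and E95 against E40 and E50, 83% of log2 changes of 1 and 91% of 2 were recovered; for E95 against E70, 76% and 97%.

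Peaks were placed by their middle base in transcripts of 19653 RefSeq coding genes, and overlaps were made with bedtools 2.31.1 on exon blocks of the same strand. Of the 444 late peaks with a RefSeq symbol, 93.5% lay at that gene, and 0 listed peaks exceeded their chromosome. Figures used matplotlib 3.10.9.

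The members and gene lists were chosen with earlier results of these data known. Named genes were, per E33 level class, the 6 with a symbol and the highest lower-of-both fold, up to 4 largest called rises and falls whose late libraries lay outside the range of E40 and E50, all members on a list, and the 2 genes on each side of 1 TPM. A gene that this rule names is not reported here. Alternatives covered scaling, pseudocount, filter, stages fitted, block, left-out libraries, peak thresholds, windows and overlap.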

Additional observations from a re-analysis of the deposited data

How the results depend on the processing

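Counts of late-peak genes called for E70 and E95 against E40 and E50 (129 of 228 tested) were 97 to 131 under 19 alternatives and 38 on TPM as deposited. The 97 came from the filter of a mean of at least 5 TPM, which left 157 late-peak genes to test. Over all genes, 2539 were higher and 2256 lower in the main fit, and 364 and 182 on TPM as deposited. Under that filter, 1710 and 1247 of 7698 were. Leaving out 1 library gave 118 to 129. For E95 against E70 (52 called), TPM as deposited gave 0 and a fit of only those stages 31. Leaving out 1 library gave 31 to 47, the lowest without E70 replicate 2, and leaving out E40 replicate 2 and E50 replicate 3 gave 54. Over all 13334 genes, 912 were higher and 897 lower in the main fit, and 10 and 28 on TPM as deposited. A fit of only those stages gave 506 and 514, that without E70 replicate 2 594 and 650, and that without the 2 libraries 1032 and 988. The counts over all genes thus moved as well. For E95 against E33 (148 called), TPM as deposited gave 64, with the balance turned from 140 higher and 8 lower to 27 and 37. Leaving out 1 library gave 137 to 143. Over all genes, 3155 were higher and 3073 lower in the main fit, and 352 and 6109 on TPM as deposited. The median log2 change of E95 against E70 turned from 0.23 to -0.24 on TPM as deposited, where that of all genes was -0.41. The cause was not tested.

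The number of late-peak genes (238) was 97 with late peaks at or above the median fold of their list, 1036 with early lists so limited, 593 with early absence judged by position, and 88 with a peak at E60 required. Those above 1 TPM at E33 (219) were 216 to 224 without 1 library. Overlap at E70 and E95 (199 genes) was 74 with peaks at or above the median fold. The share near the stop codon (29.3%) was 17.1% within 100 and 41.4% within 400 bases, and the E60 share (37.0%) was 18.5% with stronger E60 peaks. The motif ratio (1.34) was 1.94 for GGACH. Among 19 named genes, ATAD5, CSNK1E, FAM124B, KCNG2, KITLG and MYOD1 were not called on TPM as deposited, and KCNG2 also not under 10 other settings.

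Same-numbered samples did not deviate together: correlations were -0.12 to 0.10 over 45 pairs, and 8 of 18 libraries correlated best with their own number. With replicate number as a block, 126, 47 and 148 late-peak genes were called in the 3 comparisons, beside 129, 52 and 148. Over all genes, the block gave 2470 higher and 2170 lower, 871 and 834, and 3094 and 3019. Depth is unknown, so 3 libraries per stage set the precision of expression, and single lists leave peaks without any.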

Other observations

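The following late-peak genes were picked one by one after their rises were seen, so they stand for no group. Each was called higher at E70 and E95 than at E40 and E50 by limma on scaled TPM. ADM, the peptide adrenomedullin, had 1.29 to 12.3 scaled TPM over E40 and E50 and 16 to 36 over the late stages, with no overlap (log2 change 2.45, and 2.30 on TPM as deposited, where it was called too). RAMP2, which forms its receptor together with CALCRL, had 12 to 39.7 and 29.9 to 95.5, which overlapped (1.46, and 1.42 as deposited, called). RAMP1, which makes the related CGRP receptor, had 4.74 to 8.97 and 18 to 39.1 (1.92, and 1.85 as deposited, called). CD34, a surface protein of endothelial and progenitor cells, had 8.33 to 16.4 and 18.3 to 28.5 (1.01, and 0.95 as deposited, not called). The 7 endothelial markers were higher at the same stages, as given above, and their part was not tested.

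FOXO6, a forkhead factor, had 0.873 to 2.32 scaled TPM over E40 and E50 and 4.94 to 17.2 at the late stages (2.28, and 2.12 as deposited, called). GPD1, the cytosolic glycerol-3-phosphate dehydrogenase, had 8.79 to 14.7 and 23.8 to 65.5 (1.74, and 1.68 as deposited, called). AGPAT2, an enzyme of glycerolipid synthesis, had 1.10 to 3.97 and 9.77 to 23.4 (2.27, and 2.11 as deposited, called), but its late peaks overlap those listed for EGFL7 on an unplaced scaffold, and the reads of this pair cannot be told apart.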
